A study of Mus musculus with 18 samples.

Results

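The interleukin 6 family genes described here are the ligands Il6, Lif, Il11 and Clcf1, the receptor chains Il6st, Il6ra, Lifr and Osmr, and the feedback inhibitor Socs3. These 9 genes were taken by name from a count table of 32285 genes, and all 9 were found in it and passed the filter on low counts that left 15072 genes for testing. RNA was sequenced from fibroblasts sorted from the joint lining of wild-type mouse paws, in 18 libraries that fall into 6 groups of 3. In the STIA OPN group the mice had serum-transfer-induced arthritis (STIA), an arthritis set off by K/BxN serum, and their cells received osteopontin (OPN) at 50 ng/mL. In the STIA unstimulated group the cells of such mice received no factor. Cells of naive mice, which had no arthritis, received 10 ng/mL fibroblast growth factor 2 (FGF2) together with 50 ng/mL OPN, FGF2 alone, OPN alone or no factor. Stimulation lasted 3 days, FGF2 was not given to STIA cells, and the genotype was wild type in every group. Strain, age, sex and the number or pooling of mice were not given in the sources used here. It is likewise not stated that replicates came from separate mice or cultures, so p-values measure the spread between these libraries, which may be technical.

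Interleukin 6 type cytokines are small secreted proteins that signal through gp130, the shared receptor chain encoded by Il6st. Interleukin 6 first binds the alpha chain encoded by Il6ra, interleukin 11 binds a different alpha chain, leukemia inhibitory factor (Lif) pairs gp130 with the chain encoded by Lifr, and oncostatin M pairs it with the chain encoded by Osmr. The receptors activate JAK kinases and the transcription factor STAT3, and STAT3 induces Socs3, whose product shuts the receptor off. In inflamed joints synovial fibroblasts are known as a source of interleukin 6 and Lif. FGF2 is a mitogen that acts through receptor tyrosine kinases, and OPN is a secreted ligand of integrins and CD44.

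Library totals ran from 27527043 to 40357342 counts, so that 3 counts, taken as the floor, equal 0.0743 to 0.109 CPM. CPM is a count scaled to the size of its library. This floor covers counting error only. The fibroblast label was checked against 8 markers, all of which were expressed in every library. Their summed level ran from 20164 to 20500 CPM with FGF2 and from 63172 to 71451 CPM in unstimulated naive cells, the groups with the lowest and the highest sums. In unstimulated naive cells this sum was mostly Col1a1 and Col1a2. Vim, Pdgfra and Pdpn were higher on average with FGF2 (8716, 396 and 829 CPM) than without (5054, 317 and 181 CPM). The other 5 fibroblast markers were lower on average with FGF2. Of 7 macrophage markers Ptprc, Adgre1, C1qa and Itgam stayed at or below 0.258 CPM in every library. The other 3 markers did not move together. Cd14, which fibroblasts can also express, averaged 43.8 CPM with FGF2 and 6.03 CPM in unstimulated naive cells, whereas Csf1r averaged 0.479 CPM with FGF2 and 2.92 CPM without, and Lyz2 0.576 CPM with FGF2 and 3.86 CPM without. The whole list, most of it Cd14 with FGF2, summed to 42.6 to 48 CPM with FGF2 and 12 to 13.6 CPM in unstimulated naive cells. The skeletal muscle gene Acta1 averaged 65.3 CPM in STIA cells and 6.3 CPM in naive cells, both unstimulated, while Ckm and Myh4 were at or below 0.535 CPM in every library. Sums of 5 endothelial, 4 keratinocyte and 6 neutrophil and lymphocyte markers were at most 15.4, 3.8 and 2.88 CPM in any library, and those of 5 pericyte and smooth muscle markers ran from 201.2 to 392.6 CPM, mostly Cspg4. Of these 5, Rgs5 averaged 38.4 CPM with both factors and 41.1 CPM with FGF2, against 2.23 CPM in unstimulated naive cells, and Myh11 averaged 9.42 CPM in STIA cells and 2.1 CPM in naive cells, both unstimulated. Among endothelial markers Kdr and Cdh5 averaged 9.08 and 3.49 CPM with FGF2, against 1.03 and 0.727 CPM in unstimulated naive cells. Tek went the other way, at 1.11 CPM with FGF2 and 9.78 CPM without, and Pecam1 and Emcn stayed at or below 0.515 CPM in every library. The neutrophil marker Ly6g averaged 2.1 CPM with FGF2 and 0.0116 CPM without. FGF2 replicate 2 lay farthest from its own group (0.277, as the root mean square of log2 deviations over genes, where the others had 0.196 to 0.242). Whether these differences play a part in the values below was not tested. In bulk RNA a smaller share of expressing cells and less RNA per cell cannot be told apart.

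On the mouse build GRCm38, the deposited table places Il6 at chr5:30013114-30019981, Lif at chr11:4257557-4272514, Il11 at chr7:4772373-4782859 and Clcf1 at chr19:4214238-4223490. It places Il6st at chr13:112464070-112510086, Il6ra at chr3:89864059-89913196, Lifr at chr15:7090614-7197489, Osmr at chr15:6813577-6874969 and Socs3 at chr11:117966079-117970047. Values below are counts over the exons of each gene.

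Stretches of DNA before an annotated start of 4 members are shown because Il6, Lif and Il11 share a short AP-1 motif there and Socs3 holds a STAT motif, while the levels of these genes moved in different directions. RefSeq promoters of build GRCm38.p6 were matched for 8 of the 9 members, Clcf1 being the exception, and searched on both strands over the 250 bases before each start. Capitals mark motif matches, and each stretch reads 5′ to 3′ on the strand of its gene, ending at the annotated start for Il6 and Il11 and before annotated exons for Lif and Socs3. Those of Il11 and Socs3 precede a start that lies inside the interval given above for the gene.
Il6, chr5:30012864-30013113, plus strand: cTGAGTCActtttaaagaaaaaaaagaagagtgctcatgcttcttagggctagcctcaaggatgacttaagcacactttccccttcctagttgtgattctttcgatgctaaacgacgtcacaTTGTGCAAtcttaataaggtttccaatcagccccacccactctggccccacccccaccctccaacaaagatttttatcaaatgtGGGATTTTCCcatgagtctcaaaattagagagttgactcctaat
Lif, chr11:4257318-4257556, plus strand: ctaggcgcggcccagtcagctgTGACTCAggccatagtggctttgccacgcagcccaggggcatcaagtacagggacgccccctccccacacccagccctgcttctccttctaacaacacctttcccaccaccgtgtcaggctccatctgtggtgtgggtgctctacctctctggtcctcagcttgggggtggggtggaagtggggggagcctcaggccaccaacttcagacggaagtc
Il11, chr7:4778142-4778391, minus strand: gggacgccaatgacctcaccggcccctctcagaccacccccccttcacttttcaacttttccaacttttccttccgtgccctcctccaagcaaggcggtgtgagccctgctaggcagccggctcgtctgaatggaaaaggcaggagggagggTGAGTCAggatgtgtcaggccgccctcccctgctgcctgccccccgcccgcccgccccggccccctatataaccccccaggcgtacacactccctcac
Socs3, chr11:117969452-117969616, minus strand: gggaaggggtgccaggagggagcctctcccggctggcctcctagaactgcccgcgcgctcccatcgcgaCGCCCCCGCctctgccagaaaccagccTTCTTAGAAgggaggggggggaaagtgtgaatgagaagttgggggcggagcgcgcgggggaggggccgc

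The AP-1 motif, searched as TGANTCA, stood 249 to 243 bases before the Il6 start, 228 to 222 bases before that of Lif and 98 to 92 bases before this start of Il11. It is held by 6.75% of the 32851 promoters in the table. In the Il6 stretch an NF-kappaB motif (GGGATTTTCC, searched with any base at the fifth letter and in 0.356% of promoters) lay 44 to 35 bases before the start. A C/EBP motif (TTGNGCAA, in 2.61%) lay 128 to 121 bases before it. The STAT motif of Socs3 (TTCNNNGAA, in 7.02%) lay 154 to 146 bases before its start, and an EGR motif (GCGNGGGCG, in 4.7%) lay 181 to 173 bases before it. Lifr held an EGR motif upstream of 1 of its 2 starts, and none of the 7 motifs searched was found in the windows of Il6st, Il6ra, Osmr or the other Il11 start. The Il6ra and Osmr windows lie wholly within annotated exons, and that of Osmr inside the gene. The remaining motifs searched, TGACGTNA and CCGGAAGT, were found upstream of none of the 8 genes and in 2.52% and 2.88% of promoters. A match is only a match of letters.

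Il6st, the shared receptor chain, was the most abundant of the 9 transcripts on average in every group except FGF2 alone. With FGF2 alone Clcf1 averaged 89.6 ± 13.6 TPM, Il6st 82.3 ± 0.913 TPM and Socs3 80.8 ± 5.53 TPM (SD, n = 3 each). The lead of Clcf1 there lies within its SD. In TPM, which scales counts to gene length and so allows genes to be compared, Il6st averaged 82.3 TPM with FGF2 and 674 TPM in unstimulated naive cells, the extremes among the 6 group means. Osmr, the oncostatin M receptor chain, followed among receptors at 19.9 TPM with FGF2 and 83.6 TPM in unstimulated naive cells. Lifr was at 2.3 to 7.04 TPM and Il6ra at 1.97 to 5.49 TPM over the group means. Among the ligands Clcf1, a cytokine that signals through gp130 and Lifr, led at 28.2 to 89.6 TPM, followed by Lif at 9.94 to 52.8 TPM and Il11 at 5.93 to 26.2 TPM. Il6 was the least abundant ligand in every group, at 0.514 to 6.94 TPM. Its raw counts ran from 6 to 151 per library, so that its values carry more counting error than those of the other members, the next lowest of which, Il11, had at least 92 counts.

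**Figure D1:**
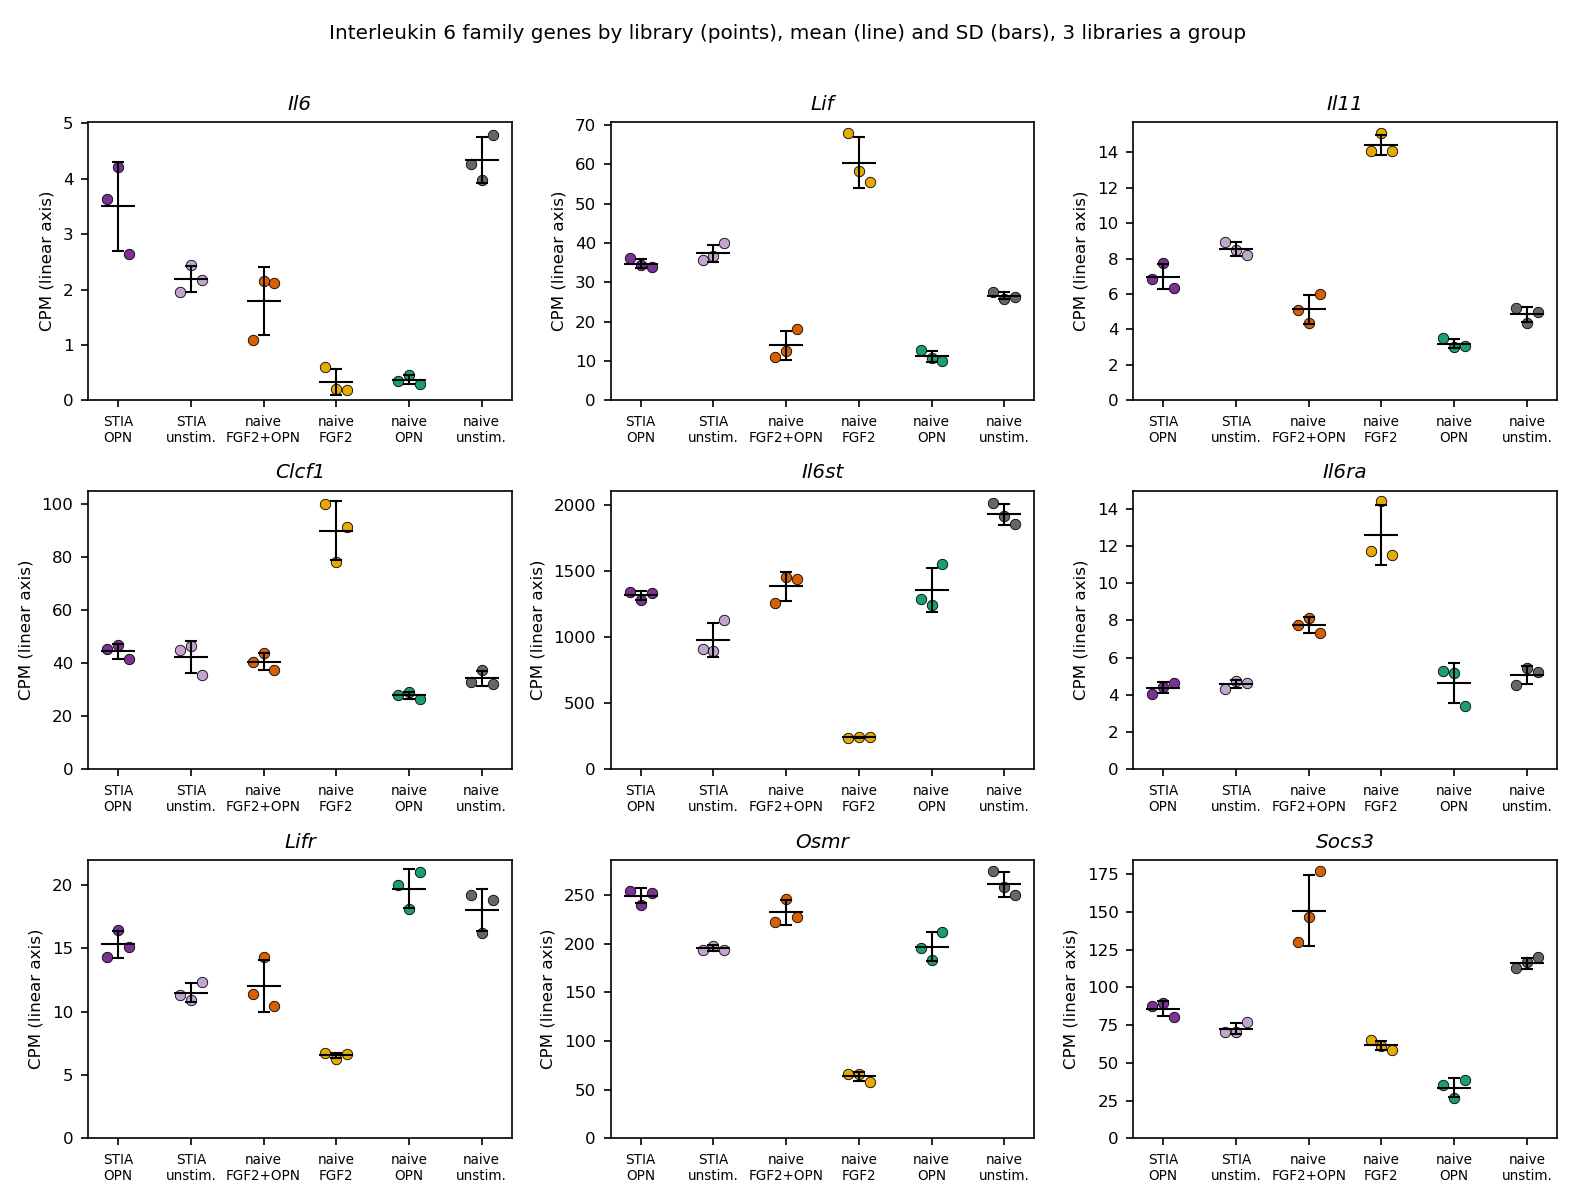
Levels of the 9 genes in CPM on library sizes scaled by TMM, with 1 panel per gene and a linear axis from 0; points are the 3 libraries of a group, lines the mean and bars the SD. With FGF2 alone Lif, Il11, Clcf1 and Il6ra stand highest and Il6st, Lifr and Osmr lowest, while Socs3 is highest with FGF2 plus OPN at 151 CPM.

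FGF2 alone raised 3 of the 4 ligands and lowered 3 of the 4 receptor chains, Il6 and Il6ra being the exceptions. All 9 members passed the test against unstimulated naive cells, 4 higher and 5 lower, in a comparison in which 57.1% of all tested genes passed. Their median log2 fold change was -0.92, against 0.01 over all tested genes. Tests are edgeR quasi-likelihood F tests, with calls at an adjusted p under 0.05 after Benjamini-Hochberg correction over the 15072 genes, and log2 fold changes are given ± SE. Where groups are said not to overlap or to lie apart, that describes the gene named. The share of all tested genes without overlap is given only for OPN in STIA cells.

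The ligands Lif, Il11 and Clcf1 rose with FGF2 and Il6 fell. Lif had 67.9, 58.3 and 55.5 CPM in the FGF2 libraries, against 27.5, 25.9 and 26.4 CPM in the unstimulated naive libraries. Il11 had 14.1, 15.1 and 14.1 CPM with FGF2, against 5.21, 4.39 and 5 CPM without. Clcf1 had 100, 77.9 and 91.2 CPM with FGF2, against 33, 37.5 and 32 CPM without. The libraries of the groups did not overlap for any of these ligands, and the log2 fold changes were 1.19 ± 0.12 for Lif, 1.56 ± 0.12 for Il11 and 1.4 ± 0.1 for Clcf1 (adjusted p 6.53e-08, 1.29e-10 and 7.3e-11). In the GENCODE M21 annotation exons of Clcf1 overlap the gene model AC109138.7 on the same strand, so its counts are less certain than those of the other ligands. Il6, whose product drives the acute-phase response and fever, had 0.6, 0.198 and 0.182 CPM with FGF2, against 4.26, 3.97 and 4.79 CPM without. That is a log2 fold change of -3.73 ± 0.34 (adjusted p 1.72e-09), a level 13.3-fold lower. It rests on 18, 6 and 6 counts in the FGF2 libraries, and without FGF2 replicate 1 it was -4.49.

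Of the receptor chains Il6st, Lifr and Osmr fell with FGF2 and Il6ra rose. Il6st, the signalling chain named above, had 235, 247 and 242 CPM with FGF2, against 2015, 1912 and 1858 CPM without. The fall was 7.99-fold (log2 fold change -3 ± 0.09, adjusted p 2.39e-17), with a spread among the FGF2 libraries of 6.17 CPM (SD). Osmr had 66.1, 66.4 and 58.2 CPM with FGF2, against 275, 258 and 250 CPM without (log2 fold change -2.04 ± 0.07, adjusted p 4.87e-17). Lifr, its neighbour on chromosome 15 at a distance of 216 kb, had 6.7, 6.28 and 6.63 CPM with FGF2, against 19.2, 16.2 and 18.8 CPM without (log2 fold change -1.47 ± 0.11, adjusted p 1.13e-10). Il6ra, the alpha chain that binds interleukin 6, went the other way. It had 11.7, 14.4 and 11.5 CPM with FGF2, against 4.51, 5.42 and 5.21 CPM without (log2 fold change 1.32 ± 0.14, adjusted p 2.69e-08). The ratio of Il6st to Il6ra in TPM was therefore 15.1 ± 1.53 with FGF2 and 300 ± 41.4 without (SD, n = 3 each). An unnamed gene model on the other strand, Gm42809, overlaps exons of Il6ra, but it had at most 9 counts in any library.

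Socs3 had 65.1, 61 and 58.8 CPM with FGF2, against 113, 117 and 120 CPM in unstimulated naive cells. The groups did not overlap, and the log2 fold change was -0.92 ± 0.11 (adjusted p 5.65e-07).

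**Figure D2:**
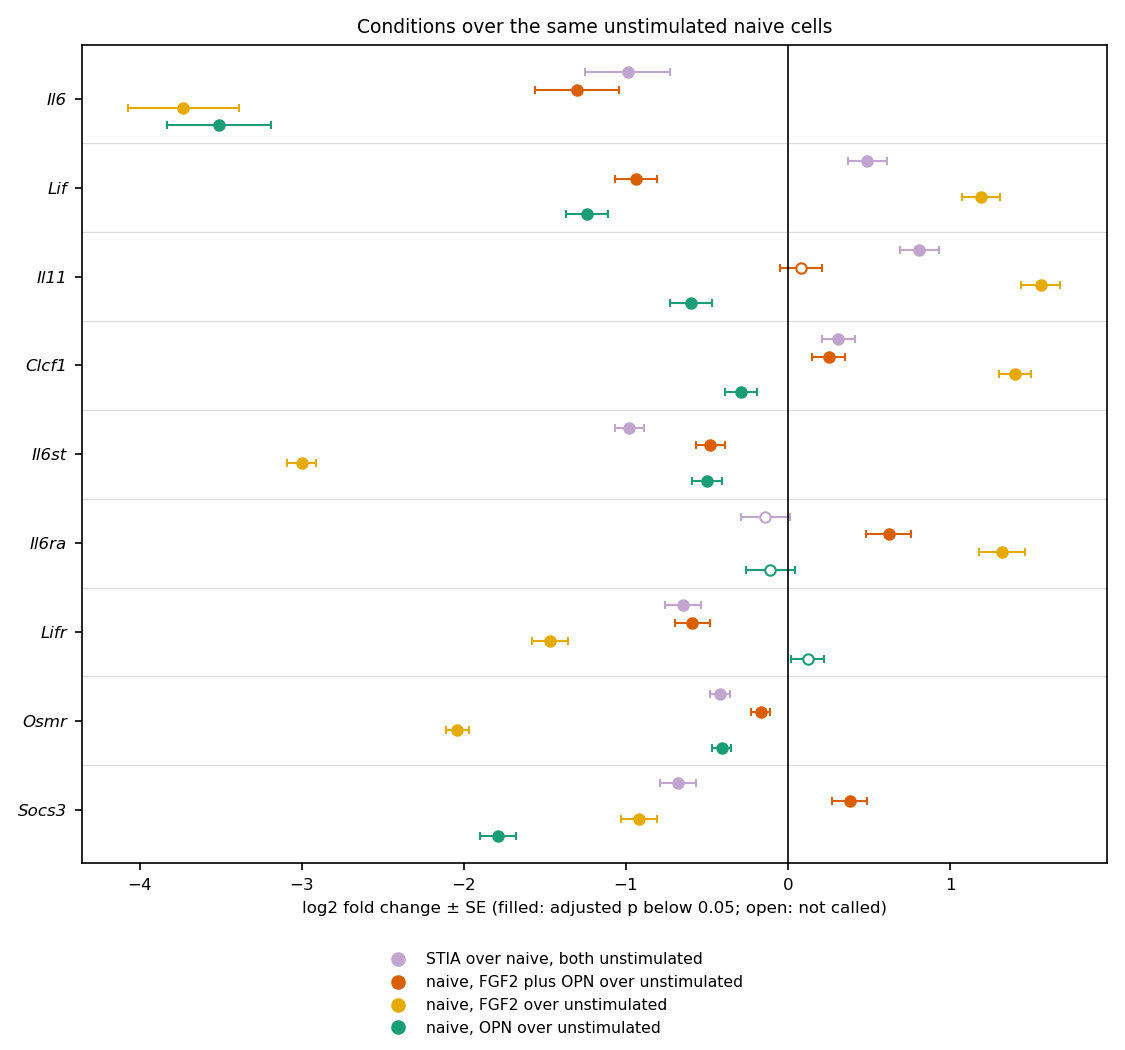
Log2 fold changes ± SE of the 9 genes for STIA, FGF2 plus OPN, FGF2 and OPN, each over the same 3 unstimulated naive libraries; filled points have an adjusted p below 0.05. With FGF2 alone 4 genes lie right of 0 and 5 left of it, and with OPN alone all 7 filled points lie left of 0.

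Summed over each set, the same shift shows in TPM. The 4 ligands summed to 169 ± 19.3 TPM with FGF2 and 74.5 ± 1.29 TPM in unstimulated naive cells, and the 4 receptor chains to 110 ± 0.744 TPM with FGF2 and 767 ± 41.8 TPM without (SD, n = 3 each). The receptor sum is mostly Il6st and the ligand sum mostly Clcf1 and Lif. These sums are a description of genes tested above and were not tested again.

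**Figure D3:**
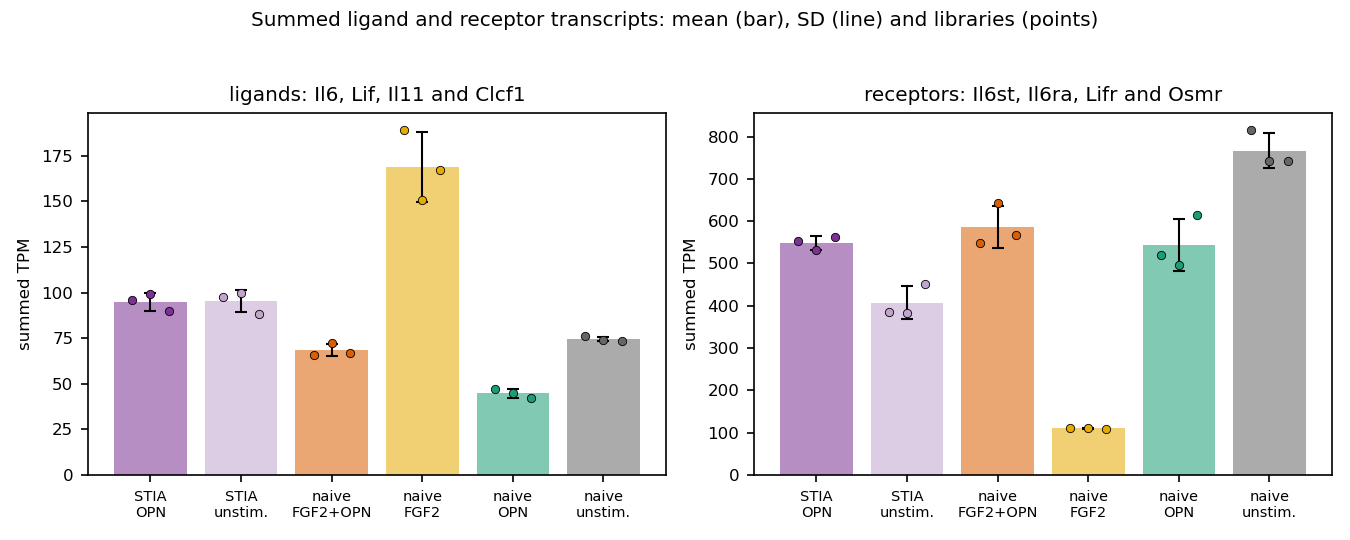
Summed TPM of the 4 ligands and of the 4 receptor chains by group, with the mean (bar), SD (line) and libraries (points) on axes from 0. FGF2 alone has the highest ligand sum, 169 TPM, and the lowest receptor sum, 110 TPM.

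OPN alone lowered most of the family. Against unstimulated naive cells 7 of 9 members were called, all of them lower, where 31.7% of all tested genes were called and 16.5% were called lower. The median over the members was -0.5 on the log2 scale, against 0 over all tested genes. The controls are the same unstimulated naive libraries as for FGF2.

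Il6 showed the largest change with OPN among the members. It had 0.352, 0.464 and 0.301 CPM with OPN, against 4.26, 3.97 and 4.79 CPM without, a level 11.4-fold lower (log2 fold change -3.51 ± 0.32, adjusted p 3.85e-08). Lif had 12.9, 10.8 and 10 CPM with OPN, against 27.5, 25.9 and 26.4 CPM without. The Lif groups did not overlap, and its log2 fold change of -1.24 ± 0.13 (adjusted p 9.51e-07) has the opposite sign to that with FGF2. Il11, with 3.52, 3.01 and 3.08 CPM in the OPN libraries against 5.21, 4.39 and 5 CPM in unstimulated ones, fell by 0.6 ± 0.13 (adjusted p 0.00146). Clcf1 fell by 0.29 ± 0.1 (adjusted p 0.0338), to 27.9 ± 1.26 CPM with OPN against 34.2 ± 2.91 CPM without (SD, n = 3 each). This smallest of the 7 calls was lost without OPN replicate 1 or 3 or unstimulated naive replicate 2 (adjusted p 0.0727, 0.101 and 0.156) and with library totals as the scale (0.0717).

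Of the receptor chains Il6st and Osmr fell with OPN. Il6st had 1287, 1242 and 1549 CPM with OPN, against 2015, 1912 and 1858 CPM without (log2 fold change -0.5 ± 0.09, adjusted p 0.000143). Osmr had 195, 183 and 212 CPM with OPN, against 275, 258 and 250 CPM without (log2 fold change -0.41 ± 0.06, adjusted p 5.25e-05). Both sets of libraries lay apart. Lifr was not called, with a log2 fold change of 0.12 and a 95% interval of -0.09 to 0.34, nor was Il6ra, with -0.11 and an interval of -0.41 to 0.19. Socs3 had 35.2, 26.9 and 38.9 CPM with OPN, against 113, 117 and 120 CPM without. This was its lowest group, and its fall was 3.47-fold (log2 fold change -1.79 ± 0.11, adjusted p 1.86e-09).

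Cells that received FGF2 and OPN together did not show the sum of the separate changes. Against FGF2 alone, all 9 members were called, 5 higher and 4 lower, where 58.4% of all tested genes were called. The genes higher with both factors than with FGF2 were Il6, Il6st, Lifr, Osmr and Socs3, and the genes lower were Lif, Il11, Clcf1 and Il6ra. Each member thus moved against the direction that FGF2 alone gave it, but the FGF2 libraries enter both comparisons, so their spread acts on the 2 values with opposite signs.

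Il6st rose 5.73-fold over FGF2 alone, with 1258, 1454 and 1439 CPM with both factors, against 235, 247 and 242 CPM with FGF2 (log2 fold change 2.52 ± 0.09, adjusted p 1.28e-15). Osmr rose 3.64-fold, with 222, 246 and 227 CPM with both, against 66.1, 66.4 and 58.2 CPM with FGF2 (log2 fold change 1.87 ± 0.07, adjusted p 9.87e-16). Every library with both factors lay above every FGF2 library for these chains. Lifr had 11.4, 14.3 and 10.4 CPM with both, against 6.7, 6.28 and 6.63 CPM with FGF2 (log2 fold change 0.88 ± 0.11, adjusted p 7.3e-07). Il6 had 1.08, 2.16 and 2.12 CPM with both, against 0.6, 0.198 and 0.182 CPM with FGF2 (log2 fold change 2.43 ± 0.36, adjusted p 4.81e-06). The Il6 libraries lay apart as well, and without FGF2 replicate 1 its log2 fold change was 3.19.

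The ligands that FGF2 had raised were lower with both factors. Lif had 11.1, 12.6 and 18.2 CPM with both, against 67.9, 58.3 and 55.5 CPM with FGF2, a level 4.35-fold lower (log2 fold change -2.12 ± 0.13, adjusted p 3.17e-11). Il11 had 5.07, 4.36 and 6 CPM with both, against 14.1, 15.1 and 14.1 CPM with FGF2 (log2 fold change -1.49 ± 0.12, adjusted p 4e-10). Neither gene's groups overlapped. Clcf1 had 40.5, 43.6 and 37.4 CPM with both, against 100, 77.9 and 91.2 CPM with FGF2 (log2 fold change -1.15 ± 0.1, adjusted p 2.18e-09). Il6ra had 7.76, 8.15 and 7.3 CPM with both, against 11.7, 14.4 and 11.5 CPM with FGF2 (log2 fold change -0.7 ± 0.13, adjusted p 0.000107). Socs3, the inhibitor, rose to 130, 147 and 177 CPM with both, against 65.1, 61 and 58.8 CPM with FGF2 (log2 fold change 1.29 ± 0.11, adjusted p 6.3e-09).

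Against unstimulated naive cells, the joint treatment had a log2 fold change nearer to 0 than FGF2 alone in all 9 members, with a change of sign for Lif and Socs3. As the controls are shared, the difference between these fold changes is the comparison with FGF2 alone given above. Against unstimulated cells 8 of 9 members were called, 3 higher and 5 lower, where 49.8% of all tested genes were called, and the median over the members was -0.17 on the log2 scale, against -0.01 over all tested genes. Lif and Il6 were lower, by 0.94 ± 0.13 and 1.3 ± 0.26 (adjusted p 6.79e-06 and 0.000247), and Lifr by 0.59 ± 0.11 (adjusted p 8.09e-05). Il6st was lower by 0.48 ± 0.09 (adjusted p 8.82e-05), and Il6ra was higher by 0.62 ± 0.14 (adjusted p 0.001). Socs3 averaged 151 ± 23.8 CPM with both factors and 116 ± 3.68 CPM without (SD, n = 3 each; log2 fold change 0.38 ± 0.11, adjusted p 0.00619). Il11 was not called, at 0.08 with a 95% interval of -0.19 to 0.34. Osmr and Clcf1 moved least among the called members, by -0.17 ± 0.06 and 0.25 ± 0.1 (adjusted p 0.0292 and 0.047), and both calls hung on the setting. With library totals as the scale, which moved the median over all tested genes by 0.144 on the log2 scale, Osmr changed by -0.03 (adjusted p 0.74). It was also not called with only the groups compared (0.0891), or without joint replicate 1 or 3 or unstimulated naive replicate 1 (0.12, 0.0593 and 0.126). Clcf1 was not called by limma-voom (0.0555), or without joint replicate 1 or 2 or unstimulated naive replicate 1 or 3 (0.0938, 0.172, 0.132 and 0.168).

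FGF2 on top of OPN was the remaining comparison among the treated naive groups. Of the 9 members 7 were called against OPN alone, 6 higher and 1 lower, where 56.5% of all tested genes were called. Il6 rose 4.64-fold and Socs3 4.5-fold over OPN (log2 fold change 2.21 ± 0.34 and 2.17 ± 0.11, adjusted p 9.29e-06 and 1.12e-11). Il11, Clcf1, Il6ra and Osmr were higher by 0.68, 0.54, 0.73 and 0.23 on the log2 scale, and Lifr fell by 0.71. Il6st was not called, at 0.03 with a 95% interval of -0.16 to 0.21. Lif was not called either, at 0.31 ± 0.14 (adjusted p 0.0625), but was called by DESeq2 (0.0462) and with library totals as the scale (0.007).

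The departure from additivity was tested directly as an interaction on the log2 scale, that is, FGF2 plus OPN over FGF2, minus OPN over no factor. All 9 members passed, 5 with a positive and 4 with a negative interaction, where 51.2% of all tested genes passed. Il6 had the largest, 5.95 ± 0.48 (adjusted p 8.25e-10), followed by Socs3 with 3.09 ± 0.16 (adjusted p 8.76e-12), Il6st with 3.02 ± 0.13 (adjusted p 1.82e-14) and Osmr with 2.27 ± 0.09 (adjusted p 1.31e-14). For these 4 genes OPN lowered the level without FGF2 and raised it with FGF2. Lifr had an interaction of 0.75 ± 0.15 (adjusted p 0.000286). Lif, Il11 and Clcf1 had negative interactions of -0.88 ± 0.18, -0.88 ± 0.18 and -0.86 ± 0.14 (adjusted p 0.000479, 0.000261 and 3.05e-05), so that OPN lowered these ligands more in the presence of FGF2 than in its absence. That of Il6ra, -0.59 ± 0.2 (adjusted p 0.0165), was not called without OPN replicate 1 or 2 or unstimulated naive replicate 1 (adjusted p 0.0633, 0.0526 and 0.0508).

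**Figure D4:**
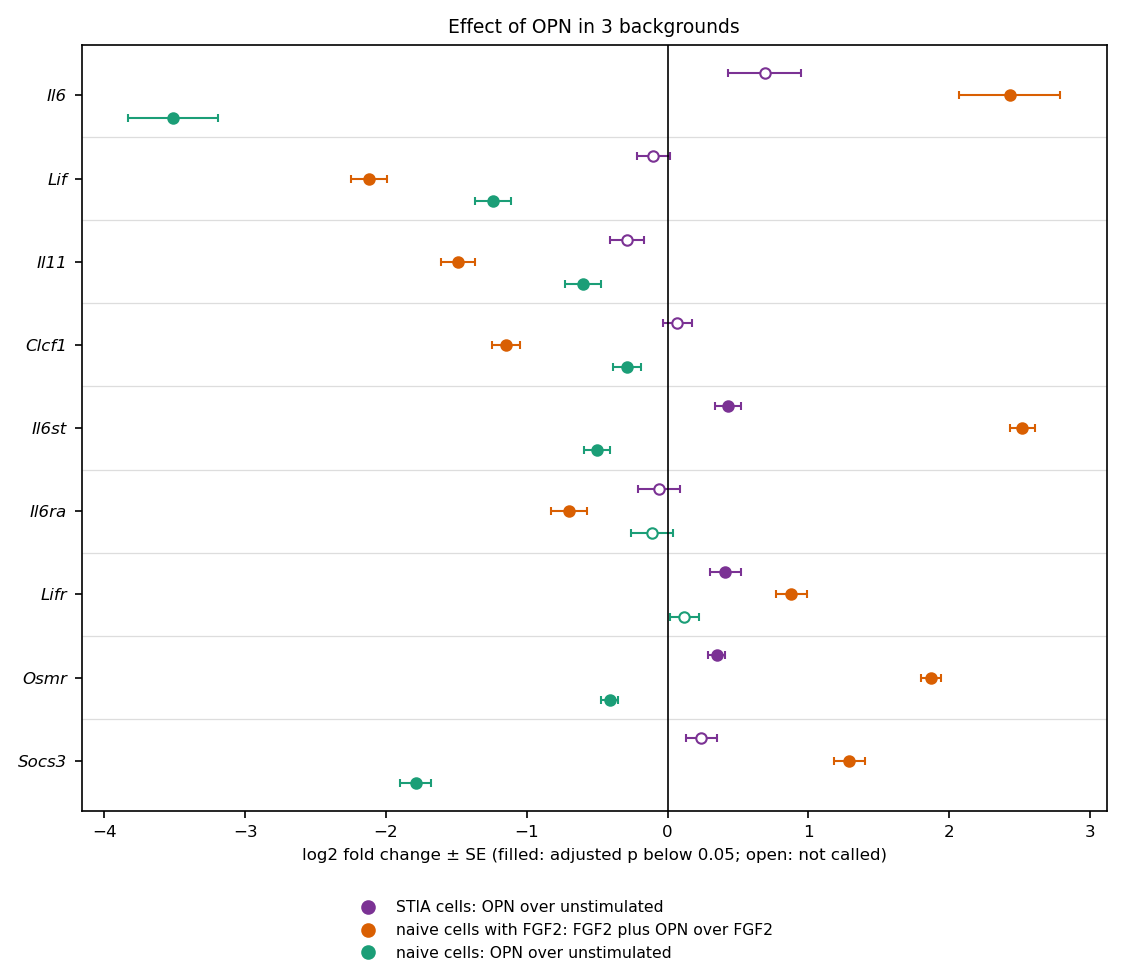
Log2 fold change ± SE given by OPN in STIA cells, in naive cells with FGF2 and in naive cells without FGF2; filled points have an adjusted p below 0.05. Il6, Il6st, Osmr and Socs3 lie left of 0 in naive cells without FGF2 and right of 0 in naive cells with FGF2, whereas Lif, Il11 and Clcf1 lie left of 0 in both.

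In cells of arthritic mice Lif, Il11 and Clcf1 were higher and Il6, Il6st, Lifr, Osmr and Socs3 were lower than in naive cells, both unstimulated. Thus 8 of 9 members were called, 3 higher and 5 lower, where 36.8% of all tested genes were called. The median over the members was -0.42 on the log2 scale, against -0.01 over all tested genes. The unstimulated naive libraries are the same as those used for FGF2 and OPN, so the directions shared with those comparisons are not independent of them. Acta1, the muscle gene given above, also differed between these groups, and its part in the values was not tested.

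Il11 rose most in STIA cells, with 8.95, 8.48 and 8.2 CPM, against 5.21, 4.39 and 5 CPM in naive cells (log2 fold change 0.81 ± 0.12, adjusted p 2.7e-05). Lif had 35.7, 36.6 and 39.9 CPM in STIA cells, against 27.5, 25.9 and 26.4 CPM in naive cells (log2 fold change 0.49 ± 0.12, adjusted p 0.00433). The groups lay apart for these ligands but overlapped for Clcf1, which had 45, 46.4 and 35.3 CPM in STIA cells, against 33, 37.5 and 32 CPM in naive cells. The call of Clcf1 (log2 fold change 0.31 ± 0.1, adjusted p 0.0203) was lost without STIA replicate 1 or 2 (adjusted p 0.0949 and 0.111) or without naive replicate 1 or 3 (0.0708 and 0.0848). Il6 was lower in STIA cells, with 1.96, 2.44 and 2.17 CPM, against 4.26, 3.97 and 4.79 CPM in naive cells (log2 fold change -0.99 ± 0.26, adjusted p 0.00412).

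Il6st had 909, 897 and 1126 CPM in STIA cells, against 2015, 1912 and 1858 CPM in naive cells, a level 1.97-fold lower (log2 fold change -0.98 ± 0.09, adjusted p 2.48e-08). Lifr fell by 0.65 ± 0.11, Osmr by 0.42 ± 0.06 and Socs3 by 0.68 ± 0.11 (adjusted p 6.26e-05, 2.67e-05 and 8.33e-05), and the groups did not overlap for any of them. Socs3 averaged 72.8 ± 3.81 CPM in STIA cells and 116 ± 3.68 CPM in naive cells (SD, n = 3 each). Il6ra was not called, at -0.14 with a 95% interval of -0.45 to 0.17.

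OPN changed few members in STIA cells. Against unstimulated STIA cells 3 of 9 members were called, all higher and all receptor chains, where 2.17% of all tested genes were called and 1.15% were called higher. Il6st had 1338, 1277 and 1334 CPM with OPN, against 909, 897 and 1126 CPM without (log2 fold change 0.43 ± 0.09, adjusted p 0.0132). Osmr had 254, 240 and 252 CPM with OPN, against 193, 198 and 193 CPM without (log2 fold change 0.35 ± 0.06, adjusted p 0.00701). Lifr had 14.3, 16.4 and 15.1 CPM with OPN, against 11.3, 10.9 and 12.3 CPM without (log2 fold change 0.41 ± 0.11, adjusted p 0.0461). The libraries lay apart for these 3 genes, but the calls are fragile. Leaving out any library of the 2 groups except STIA replicate 3 ended the call of Il6st (adjusted p 0.0503 to 0.113), leaving out any of the 6 ended that of Lifr (0.0597 to 0.244), and leaving out STIA replicate 1 ended that of Osmr (0.0509). The call of Lifr was also lost with RLE size factors and with library totals as the scale (0.0534 and 0.0703). Il6 averaged 3.5 ± 0.796 CPM with OPN and 2.19 ± 0.242 CPM without (SD, n = 3 each). Its log2 fold change of 0.69 ± 0.26 was not called (adjusted p 0.201), though its libraries did not overlap. That was so for 6 of 9 members here, among them the uncalled Il11 (lower with OPN in every library) and Socs3 (higher), and for 25.4% of all tested genes.

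Set against naive cells that also received OPN, STIA cells with OPN differed in 7 of 9 members, 6 higher and 1 lower, where 40.0% of all tested genes were called. Il6 had 3.63, 4.22 and 2.64 CPM in STIA cells with OPN, against 0.352, 0.464 and 0.301 CPM in naive cells with OPN, a level 9.23-fold higher (log2 fold change 3.21 ± 0.32, adjusted p 8.58e-08). Lif had 36.2, 34.4 and 34 CPM, against 12.9, 10.8 and 10 CPM in naive cells with OPN (log2 fold change 1.63 ± 0.13, adjusted p 1.53e-08). Socs3 had 87.8, 89.5 and 80.2 CPM, against 35.2, 26.9 and 38.9 CPM in naive cells with OPN (log2 fold change 1.35 ± 0.11, adjusted p 3.03e-08). For these genes every STIA OPN library lay above every naive OPN library. Il11, Clcf1 and Osmr were higher by 1.12, 0.67 and 0.34 on the log2 scale, Lifr fell by 0.36, and Il6st and Il6ra were not called.

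Whether OPN acted differently in STIA cells than in naive cells was tested as a contrast of its own. It was called for 5 of 9 members, all with a more positive effect in STIA cells, where 22.3% of all tested genes were called and 11.8% were called more positive. The difference was 4.2 ± 0.41 for Il6, 2.03 ± 0.16 for Socs3, 1.14 ± 0.18 for Lif, 0.93 ± 0.12 for Il6st and 0.76 ± 0.09 for Osmr on the log2 scale (adjusted p 3.38e-07, 7.7e-08, 0.000142, 1.17e-05 and 3.71e-06). Il11, Clcf1, Il6ra and Lifr were not called, with 95% intervals of -0.06 to 0.68, 0.07 to 0.66, -0.39 to 0.49 and -0.02 to 0.6. The value of Clcf1 passed with the replicate block, with only the groups compared, with no low-count filter and without STIA replicate 2 (adjusted p 0.0429, 0.0374, 0.0131 and 0.044), against 0.0718 as tested.

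Over all 6 groups the members fell into different orders of level. Il6 was highest in unstimulated naive cells at 4.34 CPM, followed by STIA OPN cells at 3.5 CPM, and the libraries of these groups overlapped. It was lowest with OPN alone and FGF2 alone, at 0.372 and 0.327 CPM, which also overlapped. Lif, Il11, Clcf1 and Il6ra were highest with FGF2 alone, apart from the next group in every library. Lif, Il11 and Clcf1 were lowest with OPN alone, where Lif overlapped with the joint treatment. Il6st and Osmr were highest in unstimulated naive cells and lowest with FGF2 alone, but for Osmr the unstimulated naive and STIA OPN libraries overlapped. Lifr ran from 19.7 CPM with OPN alone to 6.54 CPM with FGF2 alone, and all its neighbouring groups overlapped except the lowest one. Socs3 was the only member for which no neighbouring groups overlapped, but how many of all tested genes share this was not counted. Its order was FGF2 plus OPN at 151 CPM, unstimulated naive at 116 CPM, STIA OPN at 85.8 CPM, STIA at 72.8 CPM, FGF2 at 61.6 CPM and OPN at 33.6 CPM.

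The other genes of the family were read from a list of 11, of which 7 passed the filter. Osm, the gene of oncostatin M and thus of the main ligand for Osmr, had 2 counts in all 18 libraries together, and Il31 had none. Il27 and Ebi3, the subunits of interleukin 27, had 7 and 2 counts. Cntfr, the alpha chain that binds ciliary neurotrophic factor, stayed at or below 2.12 CPM in every library.

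Il11ra1, the alpha chain that binds interleukin 11, was present in every library at 41.5 to 97.2 CPM. Reads of near-identical copies of this gene in the mouse genome could be shared with it, so its level is uncertain. It had 48.4, 58.9 and 47.2 CPM with FGF2, against 68.3, 70.4 and 71.2 CPM in unstimulated naive cells (log2 fold change -0.44 ± 0.07, adjusted p 2.11e-05). With both factors it had 97.2, 90.4 and 95.8 CPM, which was 0.88 ± 0.07 higher than with FGF2 on the log2 scale (adjusted p 9e-10). Ctf1, the gene of cardiotrophin 1, fell with FGF2 by 1.13 ± 0.18 (adjusted p 8.37e-06), to 1.9 CPM against 4.14 CPM. Il31ra had 0.267, 6.61 and 1.12 CPM with FGF2, against 0.505, 0.319 and 0.313 CPM without, with the highest value in FGF2 replicate 2, the library that lay farthest from its group. Over the list 2 genes were higher and 4 lower with FGF2, 1 was lower with OPN, 2 were higher and 1 lower with both factors against unstimulated cells, and 1 was lower in STIA cells. Of all tested genes 57.1%, 31.7%, 49.8% and 36.8% were called in these 4 comparisons. The 1 of 7 with OPN and the 1 of 7 in STIA cells thus lie below the share over all genes, and the count with both factors lies near it.

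Signal transducers were read from a list of 16 genes of the JAK-STAT pathway, its phosphatases and its receptor sheddases, all of which passed the filter. With FGF2 3 were higher and 9 lower, where 57.1% of all tested genes were called, with a median of -0.22 on the log2 scale. Stat3, the main transcription factor downstream of gp130, had 179, 188 and 167 CPM with FGF2, against 329, 334 and 336 CPM in unstimulated naive cells (log2 fold change -0.9 ± 0.06, adjusted p 4.12e-12). Stat5a, of the same factor family, fell by 1.35 ± 0.08 (adjusted p 3.46e-13), while Tyk2, a JAK kinase, rose by 1.3 ± 0.07 (adjusted p 1.41e-13). With both factors against FGF2 alone 10 were higher and 3 lower, where 58.4% of all tested genes were called. Stat3 had 335, 373 and 369 CPM with both, and its log2 fold change over FGF2 was 1.01 ± 0.06 (adjusted p 1.27e-12). The interaction was called for 14 of the 16, 11 positive and 3 negative, where 51.2% of all tested genes were called. OPN alone gave 1 higher and 6 lower genes, where 31.7% of all tested genes were called, and STIA 1 higher and 11 lower, where 36.8% were. For OPN in STIA cells none of the 16 was called, where 2.17% of all tested genes were called, and the median over the list was 0.1, against 0 over all tested genes.

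A list of 22 genes known to be induced through STAT3 was read beside Socs3, with roles known largely from other cell types. With FGF2 3 were higher and 14 lower, and with OPN 16 were lower and the other 6 were not called. Of all tested genes 57.1% and 31.7% were called in these comparisons, and 16.5% were called lower with OPN. The medians over the list were -0.86 and -0.76 on the log2 scale, against 0.01 and 0 over all tested genes, and the controls are shared. With both factors 8 were higher and 5 lower than in unstimulated naive cells, and against FGF2 alone 17 were higher and 3 lower, with a median of 1.36. The interaction was positive for 18 and negative for 1, with a median of 1.85 against -0.03 over all tested genes. For both factors over unstimulated cells, both over FGF2 and the interaction, 49.8%, 58.4% and 51.2% of all tested genes were called. The count for both factors over unstimulated cells lay not far above its share.

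Serpina3n, an acute-phase protease inhibitor, had 102, 109 and 139 CPM with both factors, against 7.57, 7.83 and 7.4 CPM in unstimulated naive cells (log2 fold change 3.94 ± 0.25, adjusted p 1.32e-08). It had 2.93, 5.35 and 2.24 CPM with FGF2 alone and 5, 5.28 and 10 CPM with OPN alone, so that only the joint treatment lay above the unstimulated level by more than the spread. Hp, the gene of haptoglobin, had 21.2, 21.7 and 31.5 CPM with both, 0.833, 1.52 and 0.697 CPM with FGF2 and 1.66, 1.11 and 1.57 CPM with OPN, against 9.34, 11.2 and 10.1 CPM in unstimulated naive cells. Its interaction was 7.43 ± 0.31 (adjusted p 5.51e-14). Steap4, a metalloreductase, had 0.0333, 0.264 and 0.121 CPM with FGF2, against 8.71, 8.89 and 6.77 CPM without (log2 fold change -5.83 ± 0.33, adjusted p 5.17e-13), with the highest FGF2 value again in replicate 2. The Steap4 value of FGF2 replicate 1 lies below the floor of 3 counts, 0.104 CPM in that library, so the size of this fall is uncertain. Bcl3, a modulator of NF-kappaB, fell by 3.79 ± 0.22 with FGF2 and by 1.9 ± 0.19 with OPN (adjusted p 2e-10 and 1.64e-06). In STIA cells 1 of the 22 was higher and 13 were lower, where 36.8% of all tested genes were called. Steap4 was lower by 3.65 ± 0.26 and Hp by 1.96 ± 0.2 (adjusted p 8.38e-10 and 2.21e-07). OPN in STIA cells raised 2, Steap4 by 1.26 ± 0.3 and Il4ra by 0.25 ± 0.06 (adjusted p 0.0306 and 0.043). There 2.17% of all tested genes were called and 1.15% were called higher.

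**Figure D5:**
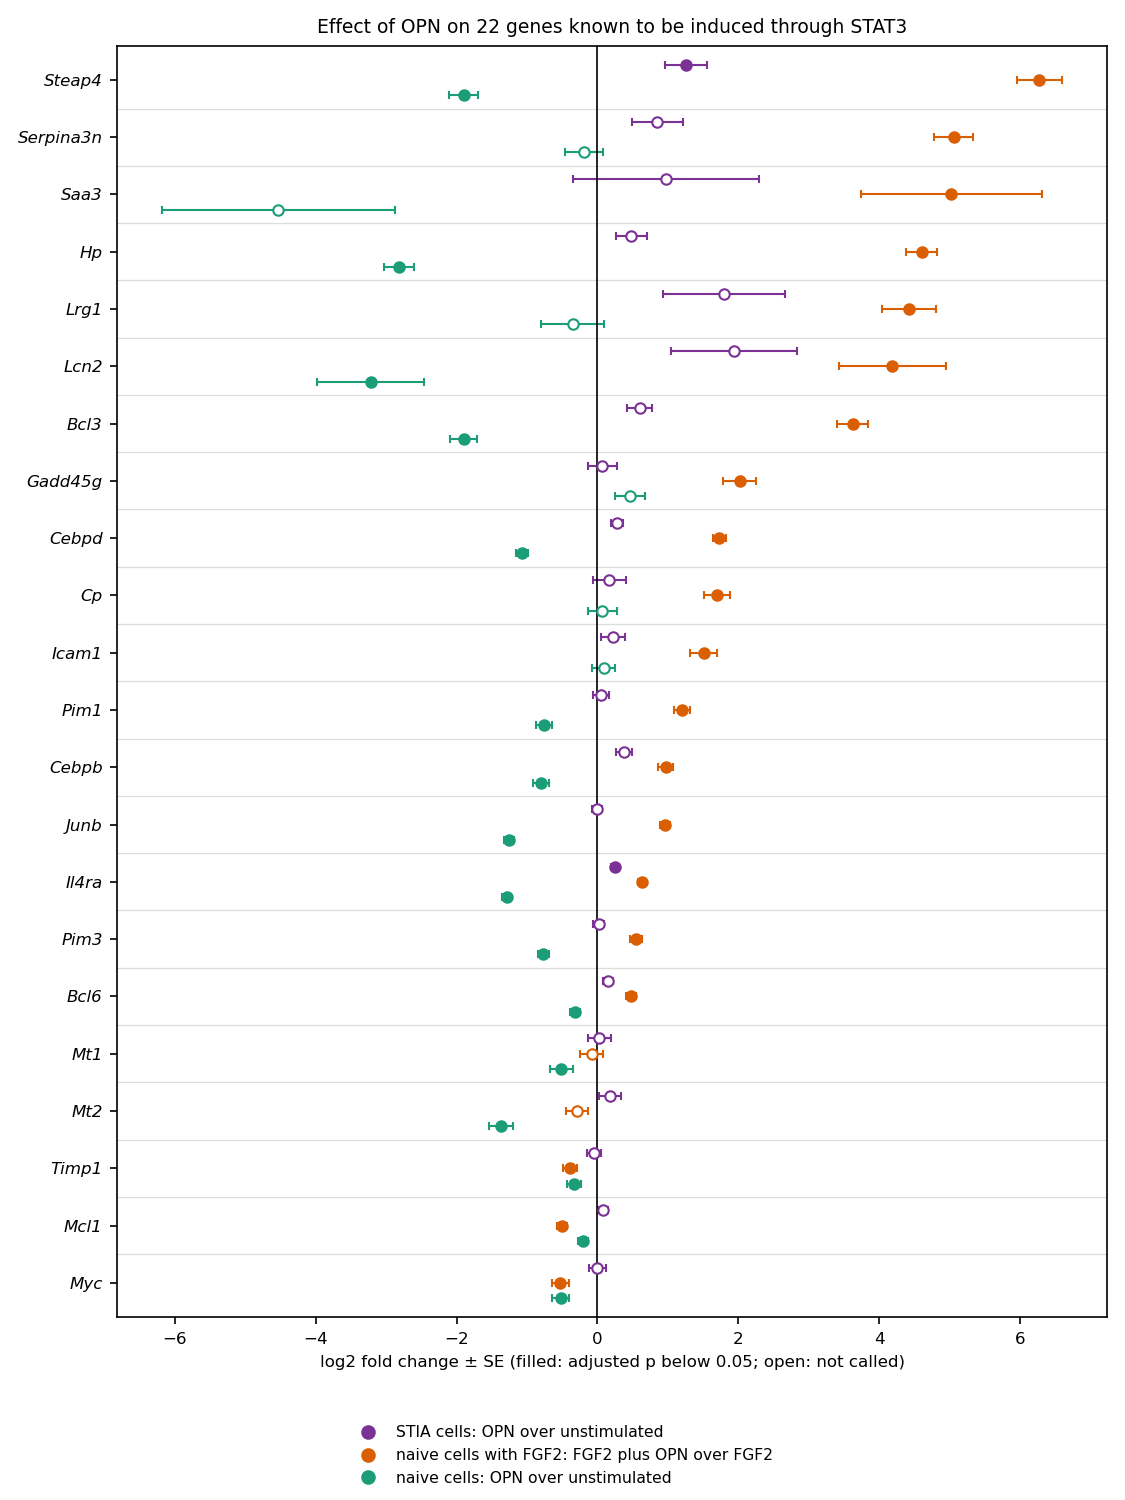
Log2 fold change ± SE given by OPN for 22 genes known to be induced through STAT3, in STIA cells, in naive cells with FGF2 and in naive cells without FGF2; filled points have an adjusted p below 0.05. In naive cells OPN called 17 higher and 3 lower with FGF2 but 16 lower without FGF2, and 2 were called higher in STIA cells. Of all tested genes 58.4%, 31.7% and 2.17% were called in these comparisons.

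Regulators known to act on Il6 were read from a list of 14 transcription factors and RNA-binding proteins. Whether any of the 14 plays a part in the Il6 values above was not tested. With OPN alone 12 were lower and the other 2 were not called, with a median of -0.92 against 0 over all tested genes. Of all tested genes 31.7% were called and 16.5% were called lower. Fos, a subunit of AP-1, had 25.9, 23.5 and 22.5 CPM with OPN, against 326, 306 and 315 CPM in unstimulated naive cells (log2 fold change -3.72 ± 0.1, adjusted p 2.25e-16). Egr1 fell by 2.28 ± 0.06, Nfkbiz, a cofactor of NF-kappaB, fell by 1.88 ± 0.12, and Zfp36, which promotes decay of cytokine mRNAs, fell by 1.77 ± 0.07 (adjusted p 7.47e-18, 4.07e-09 and 8.72e-15). With FGF2 3 were higher and 6 lower, a share of called genes near the 57.1% over all tested genes. Fos was lower, with 118, 91.9 and 124 CPM (log2 fold change -1.51 ± 0.09, adjusted p 5.79e-12). Fosl1, another AP-1 subunit, was higher by 1.67 ± 0.14 (adjusted p 2.63e-09). The interaction was positive for 12 and negative for 2, where 51.2% of all tested genes were called, and that of Fos was 5.56 ± 0.14 (adjusted p 1.35e-17). Between STIA and naive cells the OPN effect differed for 12, all more positive in STIA cells. Of all tested genes 22.3% were called for this difference and 11.8% were called more positive. Within STIA cells none of the 14 was called for OPN, where 2.17% of all tested genes were called, and their median was 0.05.

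Cytokines known to induce the family in fibroblasts, and their receptors, were read from a list of 11, of which 8 passed the filter. Il1b had 1 count, Tnf 12 and Il1a 27 counts in all 18 libraries together. Il1r1, the interleukin 1 receptor, had 26.3, 38.2 and 24.5 CPM with FGF2, against 116, 101 and 114 CPM in unstimulated naive cells (log2 fold change -1.89 ± 0.17, adjusted p 1.18e-07). With both factors it had 127, 155 and 131 CPM, higher than with FGF2 by 2.22 ± 0.17 (adjusted p 2.65e-08), and in STIA cells it was lower than in naive cells by 1.29 ± 0.16 (adjusted p 2.94e-05). Il17ra, the interleukin 17 receptor, fell with FGF2 by 1.36 ± 0.06 (adjusted p 2.54e-15). Tgfb1, a known inducer of Il11 and Lif, rose with FGF2 to 162.6 CPM, against 74.2 CPM (log2 fold change 1.13 ± 0.07, adjusted p 1.42e-12), and Tgfb2 fell by 3.4 ± 0.22 (adjusted p 4.46e-09). Of 9 TGF-beta target genes 1 was higher and 4 were lower with FGF2, a share of called genes near the 57.1% over all tested genes, among them Postn by -2.72 ± 0.12 (adjusted p 3.92e-14). In STIA cells, where 36.8% of all tested genes were called, 7 of these were higher and 1 lower, with Ccn2 higher by 1.8 ± 0.21 (adjusted p 1.87e-05). Whether any of these cytokines or receptors plays a part in the levels of the family was not tested.

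The genes with the most similar pattern were sought by Pearson correlation of log2 CPM over the 18 libraries among 10569 genes. The libraries fall into 6 treatment groups that also set most other genes, so high correlations are common here and are given as a description. Il6st was closest to Bicc1 and Pfkfb3 (r 0.991 and 0.986), and Osmr to Pcsk5 and St5 (0.989 and 0.982). Lifr was closest to Rspo3 and Marcks (0.981 and 0.978), and Il6ra to Foxl1 and Clic5 (0.975 and 0.969). Lif was closest to Abcc1 and Pxdn (0.974 and 0.972), Il11 to Csnk1e and Tuba1c (0.974 and 0.97), and Clcf1 to Ankrd13b and Dusp5 (0.972 and 0.97). Socs3 was closest to Sphk1 and Junb (0.973 and 0.959). Il6 had the lowest best value, with Gys1 and Bhlhe40 (0.932 and 0.93).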

How the data were processed

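RNA from 18 libraries was analysed as a deposited table of raw counts per gene. Per the submitters' processing notes, the authors used STAR and featureCounts with GRCm38 (mm10). Versions, annotation release, strandedness and the handling of multi-mapping reads were not given in the sources used here. Without a stated strand, reads of overlapping genes on opposite strands cannot be told apart. The gene lengths in the same deposited table, in bases of exon, served only to compute TPM. Symbols came from the GENCODE M21 annotation for 32158 of the 32285 identifiers, and the 127 left unnamed held 0.029% of counts and stayed in the library totals.

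Counts were fitted with edgeR 4.0.16 in R 4.3.3: filterByExpr on the groups (15072 genes kept), TMM scaling, 1 mean per group over all 18 libraries, robust quasi-likelihood, two-sided F tests of 10 contrasts, Benjamini-Hochberg adjustment over all tested genes and calls below 0.05. Each SE was taken as |log2 fold change| over √F. CPM uses TMM-scaled library sizes. The fit was also run on simulated data, with known changes set in the FGF2 group alone and only in genes with a higher mean level than Il6. The outcome of that run is not reported here. Alternatives were RLE size factors, library totals, no low-count filter, DESeq2 1.42.0, limma-voom (limma 3.58.1), only the groups compared, a replicate block and each library left out. No 2 libraries were identical.

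The members and gene lists were chosen with earlier results of these data known, and the motifs with the promoters in view. All 9 members are named in every comparison, and of each list up to 4 called genes with the largest change; Il11ra1, Cntfr, Stat3, Osm and the near-absent genes were also named for their roles. Other genes of the lists are named for their part in a sentence, and no set was tested. Results for some genes of the lists are not reported here.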

Additional observations from a re-analysis of the deposited data

Results flagged for a closer look

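Effects of the same factor differed between backgrounds, by a test of the difference itself, for the following members. The OPN effect in naive cells with FGF2 minus that in naive cells without FGF2 was 5.95 for Il6, 3.09 for Socs3, 3.02 for Il6st, 2.27 for Osmr and 0.75 for Lifr on the log2 scale. It was -0.88 for Lif, -0.88 for Il11, -0.86 for Clcf1 and -0.59 for Il6ra. The OPN effect in STIA cells minus that in naive cells was 4.2 for Il6, 2.03 for Socs3, 1.14 for Lif, 0.93 for Il6st and 0.76 for Osmr. Both differences use the unstimulated naive and OPN libraries.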

How the results depend on the processing

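Whether replicate numbers pair libraries is not stated. Deviations of same-numbered libraries from their group means correlated between -0.104 and 0.199, and 2 of 45 pairs lay above 0.1. Those of differently numbered libraries correlated between -0.147 and 0.129, and 5 of 90 pairs lay above 0.1. Such weak correlations cannot exclude that libraries of the same number share a mouse or culture. With the numbers as a replicate block, the count of members called kept within 1.5 times of the reported one in every comparison; Lifr lost its call for OPN in STIA cells (adjusted p 0.0651) and Clcf1 gained one for the difference of the OPN effect (0.0429). Leaving out FGF2 replicate 1 moved Il6 most: -4.49 for FGF2, 3.19 for both factors over FGF2 and 6.7 for the interaction. For OPN in STIA cells the count of 3 called members became 5 with no low-count filter and 5 with only the groups compared, where Il6 (adjusted p 0.0395 and 0.0215) and Socs3 (0.0301 and 0.00701) passed, and it ran from 0 to 2 with 1 library left out. Over all genes that comparison called 327, against 615 by DESeq2.

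Signs turned only for values that were not called, with 1 library left out: Il6ra with OPN in naive cells ran from -0.22 to 0.05, Il11 with both factors over none from -0.04 to 0.18, Il6st with both over OPN from -0.04 to 0.13, and Clcf1 with OPN in STIA cells from -0.04 to 0.14. Likewise, in STIA OPN over naive OPN cells Il6st ran from -0.11 to 0.06 and Il6ra from -0.26 to 0.02, and the difference of the OPN effect for Il6ra from -0.11 to 0.16. Of the log2 fold changes recomputed for single members, 1218 kept direction and side of the threshold, 36 fell below it, 13 passed it and 11 turned. Depth limits Il6 most, with 6 counts in its lowest libraries.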
